A study of Rattus norvegicus with 8 samples.

Results

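The genes described here are 35 genes of cholesterol and fatty acid synthesis that are known as parts or targets of the sterol regulatory element-binding protein (SREBP) system. They were chosen by name, and each was represented by the probe set with a single gene symbol that had the highest mean signal over all arrays. All 35 were found, of 14217 genes so represented, and all entered the test, since no filter on low signal was used. They fall into a sterol arm of 18 genes (the enzymes from Acat2 to Dhcr7 and the sterol carrier Stard4), 3 regulators (Srebf1, Srebf2 and Insig1) and a fatty acid arm of 14 genes. Each of 8 arrays held testis RNA of male Fischer 344 rats at gestational day 20. In the 4 samples of the DBP group the dam was given the plasticizer dibutyl phthalate (DBP) at 50 mg/kg in corn oil. In the 4 samples of the vehicle group the dam was given corn oil without DBP. Both groups were dosed by gavage at 1 ml per kg each day over gestational days 12 to 20, and collection followed the last dose by 6 h. The comparison addresses which transcripts of the fetal testis differ after exposure at this dose. The labels do not say whether samples of a group came from separate dams, so the p-values reflect no more than how these samples spread. Whole testes were measured, so fewer cells of a type and less RNA per cell cannot be told apart.

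SREBP proteins are made as precursors in the endoplasmic reticulum membrane and are held there by Insig proteins while sterols are plentiful. When sterols fall, the precursor moves to the Golgi, is cut, and its released part enters the nucleus and switches on its targets. The protein of Srebf2 mainly drives cholesterol synthesis and that of Srebf1 mainly fatty acid synthesis. In the testis, cholesterol is the starting material for testosterone in Leydig cells, and high doses of DBP are known to lower genes of cholesterol synthesis and steroid production in fetal rat testes.

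Array medians were 6.08 to 6.13 on the log2 scale, correlations between arrays over all probe sets were 0.991 to 0.998, and RNA integrity numbers were 8.6 to 8.8. On 2 arrays, DBP replicates 3 and 4, the bacterial control transcripts spiked into the RNA were dim. Their mean log2 signal over 12 probe sets was 4.92 and 4.85, while the remaining arrays had 6.39 to 7.10. The SD of all log2 signals was 2.194 and 2.182 on these 2 arrays, against 2.230 to 2.253 on the rest. The 3′ minus 5′ log2 signal of the Hexokinase control was 1.41 and 1.63, against 1.09 to 1.36. That of beta-actin, at 0.80 and 0.75, lay within the other arrays. The part of these differences in the changes below was not tested. Markers of the labelled tissue were present: the mean log2 signal of 7 Sertoli cell markers was 10.73 to 10.90 on DBP arrays and 10.72 to 10.77 on vehicle arrays. That of 6 Leydig cell markers was 11.55 to 11.73 on DBP arrays and 11.66 to 11.73 on vehicle arrays.

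None of the 35 genes reached an adjusted p under 0.05 (limma, Benjamini-Hochberg over all probe sets), a level that 1.22% of all genes reached. At an adjusted p under 0.10 there was 1, Fads2, where 2.88% of all genes passed. Without adjustment, 10 of the 35 (28.6%) had a p under 0.05, against 19.1% of all genes. Of these 10, 5 were higher after DBP (Idi1, Ebp and Sc5d of the sterol arm, Scd and Fads2 of the fatty acid arm) and 5 were lower (the regulator Insig1 and, of the fatty acid arm, Fasn, Scd2, Elovl6 and Acss2). The higher ones made up 14.3% of the 35, against 11.3% of all genes, and the lower ones 14.3%, against 7.84% of all genes. The DBP and vehicle arrays did not overlap for 5 of the 35 genes, or 14.3%, and for 12.9% of all genes, so this share lay near the background. These 5 were Sc5d and Fads2, higher after DBP (7.31% of all genes were), and Insig1, Elovl6 and Acss2, lower after DBP (5.56% of all genes were). The log2 change was above 0 for 16 of the 35, against 56.8% of all genes. The median log2 change, DBP minus vehicle, was 0.02 over the sterol arm and -0.07 over the fatty acid arm, beside 0.02 over all genes. The changes ran from -0.26 (Acss2) to 0.49 (Scd).

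**Figure D1:**
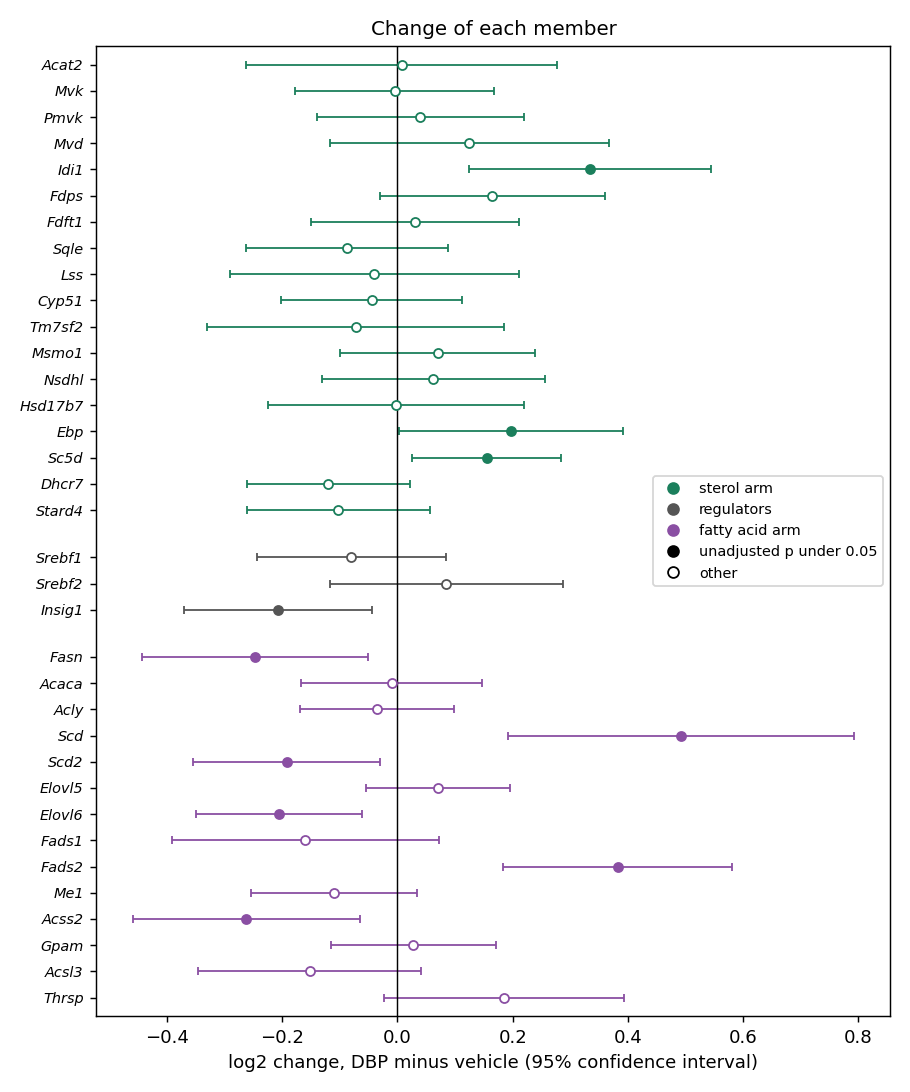
Log2 change of each of the 35 genes, DBP minus vehicle, with its 95% confidence interval from limma; green is the sterol arm, grey the regulators and purple the fatty acid arm, and filled points have an unadjusted p under 0.05. Scd (0.49) and Fads2 (0.38) lie farthest to the right, Acss2 (-0.26) and Fasn (-0.25) farthest to the left, and most genes of the sterol arm lie near 0.

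SREBP proteins act at promoters with the help of NF-Y, which binds CCAAT boxes, and Sp1, which binds GC boxes, so the promoters of the genes were searched for these letters. RefSeq promoter windows of 300 bases (250 before to 50 after the gene's start, build GRCr8) were matched by symbol for 28 of the 35 genes, with 29 windows since Srebf1 has 2. Searched on both strands, CCAAT was present in 23 of the 29 windows (79.3%), against 36.8% of the 13242 windows of genes measured on the array and 37.5% of all 33469 windows. GGGCGG, a GC box, was present in 23 windows (79.3%), against 55.7% of the windows of measured genes. CACGTG, an E box, was present in 3 windows (those of Insig1, Sc5d and Elovl5), against 8.62%. TCACNCCAC, a common form of the sterol regulatory element, was present in 0 of the 29 windows and in 1.07% of the windows of measured genes. Other spellings of the element were not searched, so the windows are not shown to lack it. These matches are descriptions of letters in a window. The windows of 4 genes are shown because their values differ in direction or size below: Idi1 and Fdps of the sterol arm, the regulator Insig1, and Fads2 of the fatty acid arm. Each is printed 5′ to 3′ on the gene's strand, which is the minus strand for all 4, and capitals mark the CCAAT boxes, GC boxes and E boxes so spelled, on either strand, which do not overlap each other here. The windows lie at chr17:66547475-66547774 for Idi1, chr2:176804767-176805066 for Fdps, chr4:8057720-8058019 for Insig1 and chr1:216171984-216172283 for Fads2.
Idi1: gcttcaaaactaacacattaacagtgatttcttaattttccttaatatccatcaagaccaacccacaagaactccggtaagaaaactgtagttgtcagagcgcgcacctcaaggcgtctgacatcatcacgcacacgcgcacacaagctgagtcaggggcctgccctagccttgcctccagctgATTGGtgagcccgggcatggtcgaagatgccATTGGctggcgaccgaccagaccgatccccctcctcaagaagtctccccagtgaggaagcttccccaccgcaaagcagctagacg
Fdps: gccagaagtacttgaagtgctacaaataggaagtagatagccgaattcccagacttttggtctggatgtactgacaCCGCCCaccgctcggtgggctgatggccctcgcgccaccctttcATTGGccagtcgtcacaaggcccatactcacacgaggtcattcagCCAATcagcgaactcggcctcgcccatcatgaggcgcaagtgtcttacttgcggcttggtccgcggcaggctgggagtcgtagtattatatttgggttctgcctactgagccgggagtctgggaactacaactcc
Insig1: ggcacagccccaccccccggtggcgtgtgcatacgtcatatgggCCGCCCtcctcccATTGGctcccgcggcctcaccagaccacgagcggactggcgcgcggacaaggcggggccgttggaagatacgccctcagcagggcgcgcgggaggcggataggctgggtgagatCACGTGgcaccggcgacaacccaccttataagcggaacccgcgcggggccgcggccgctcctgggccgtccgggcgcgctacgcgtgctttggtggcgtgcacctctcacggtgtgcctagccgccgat
Fads2: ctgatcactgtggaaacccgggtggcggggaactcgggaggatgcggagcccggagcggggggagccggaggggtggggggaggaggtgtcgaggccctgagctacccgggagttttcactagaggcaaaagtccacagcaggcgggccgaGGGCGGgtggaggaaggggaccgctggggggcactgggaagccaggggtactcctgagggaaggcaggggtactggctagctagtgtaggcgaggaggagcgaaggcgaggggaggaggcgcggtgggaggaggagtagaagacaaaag
The Fdps window holds a GC box and 2 CCAAT boxes, the Insig1 window holds a CCAAT box, a GC box and an E box, and the Idi1 window holds 2 CCAAT boxes, both reversed. In the Fads2 window only a GC box matched.

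In the sterol arm, Idi1, which isomerises isopentenyl diphosphate, had the largest difference. Its log2 signal was 10.60, 10.69, 10.80 and 10.31 in DBP replicates 1 to 4, against 10.29, 10.31, 10.22 and 10.24 in vehicle replicates 1 to 4. Of the DBP arrays 3 lay above every vehicle array, while DBP replicate 4 equalled the highest vehicle array, so the groups touched. The mean was 10.60 ± 0.21 in DBP and 10.27 ± 0.042 in vehicle (SD, n = 4 per group), a 1.26-fold difference (log2 change 0.34 ± 0.095, SE) that did not pass (limma adjusted p = 0.121). Without DBP replicate 4 the log2 change of Idi1 was 0.43 (limma adjusted p = 0.0166), and 1.26% of all genes passed there. In DBP replicates 1 and 2 against vehicle, the arrays without low spike-in signal, it was 0.38 (limma adjusted p = 0.0223, with 1.67% of all genes passing), and with arrays weighted by their quality it was 0.36 (limma adjusted p = 0.0431, with 1.64% passing). A term for the dim spike-ins was also added to the fit of all arrays. It marks DBP replicates 3 and 4 and holds no spike-in level. Its log2 changes therefore equal those of DBP replicates 1 and 2 against vehicle by construction, and only the p-values differ. With this term the 0.38 of Idi1 did not pass (limma adjusted p = 0.173). As a mean over the probe sets of Idi1 the log2 change was 0.21 (limma adjusted p = 0.246). The unadjusted p of Idi1 was then no longer under 0.05. Over all 21 alternatives the adjusted p of Idi1 ran from 0.0166 to 0.29.

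The 4 listed enzymes upstream of Idi1 differed little; further steps between Acat2 and Mvk, the rate-limiting one among them, are not analysed here. Acat2, the cytosolic thiolase that makes acetoacetyl-CoA, had a log2 change of 0.01, Mvk, mevalonate kinase, of 0.00, Pmvk, phosphomevalonate kinase, of 0.04, and Mvd, the decarboxylase that makes isopentenyl diphosphate, of 0.13. Their 95% confidence intervals held 0 and reached at most 0.37 in size, that of Mvd. Their DBP arrays spread more than the vehicle arrays, as Acat2 shows, with 9.13, 9.41, 9.44 and 8.82 in DBP replicates 1 to 4, against 9.26, 9.13, 9.20 and 9.18 in vehicle replicates 1 to 4. DBP replicate 4 was the lowest and DBP replicate 3 the highest of all 8 arrays.

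Fdps, farnesyl diphosphate synthase, the enzyme after Idi1, had 10.80, 10.97, 11.10 and 10.68 in DBP replicates 1 to 4, against 10.74, 10.64, 10.76 and 10.75 in vehicle replicates 1 to 4. The first 3 DBP arrays lay above every vehicle array and DBP replicate 4 lay within the vehicle range, and the log2 change was 0.17 (-0.03 to 0.36, 95% confidence interval; limma adjusted p = 0.343). The enzymes that turn farnesyl diphosphate into lanosterol and remove its first methyl group were closer to 0 in their representing probe sets. Fdft1, squalene synthase, had a log2 change of 0.03, Sqle, squalene epoxidase, of -0.09, Lss, lanosterol synthase, of -0.04, and Cyp51, lanosterol demethylase, of -0.04. The further probe sets of Cyp51 (0.18), Lss (0.14) and Fdft1 (-0.10) lay on the other side of 0. That of Cyp51 was no closer to 0 than Fdps.

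Among the late enzymes, which turn lanosterol derivatives into cholesterol, Ebp and Sc5d were the higher ones. Ebp, a sterol isomerase, had 7.49, 7.68, 7.75 and 7.37 in DBP replicates 1 to 4, against 7.37, 7.26, 7.43 and 7.44 in vehicle replicates 1 to 4 (log2 change 0.20 ± 0.088, SE; limma adjusted p = 0.268). DBP replicate 4 again lay among the vehicle arrays and the other DBP arrays above them. Sc5d, a sterol desaturase that acts just before Dhcr7, had 8.67, 8.53, 8.60 and 8.52 in DBP replicates 1 to 4, against 8.48, 8.39, 8.45 and 8.38 in vehicle replicates 1 to 4. All 4 DBP arrays lay above every vehicle array, although the difference was small (log2 change 0.16 ± 0.058, SE; limma adjusted p = 0.213). Dhcr7, which makes cholesterol from its direct precursor, was on the low side, with 10.01, 10.25, 10.18 and 10.17 in DBP replicates 1 to 4, against 10.30, 10.21, 10.29 and 10.29 in vehicle replicates 1 to 4 (log2 change -0.12, limma adjusted p = 0.343). Of its DBP arrays 3 lay below every vehicle array. The other late enzymes lay between -0.07 (Tm7sf2, a sterol reductase) and 0.07 (Msmo1, methylsterol monooxygenase), with Nsdhl, a sterol dehydrogenase, at 0.06 and Hsd17b7, a sterol ketoreductase, at 0.00. Stard4, which carries cholesterol between membranes, had a log2 change of -0.10 (limma adjusted p = 0.459).

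**Figure D2:**
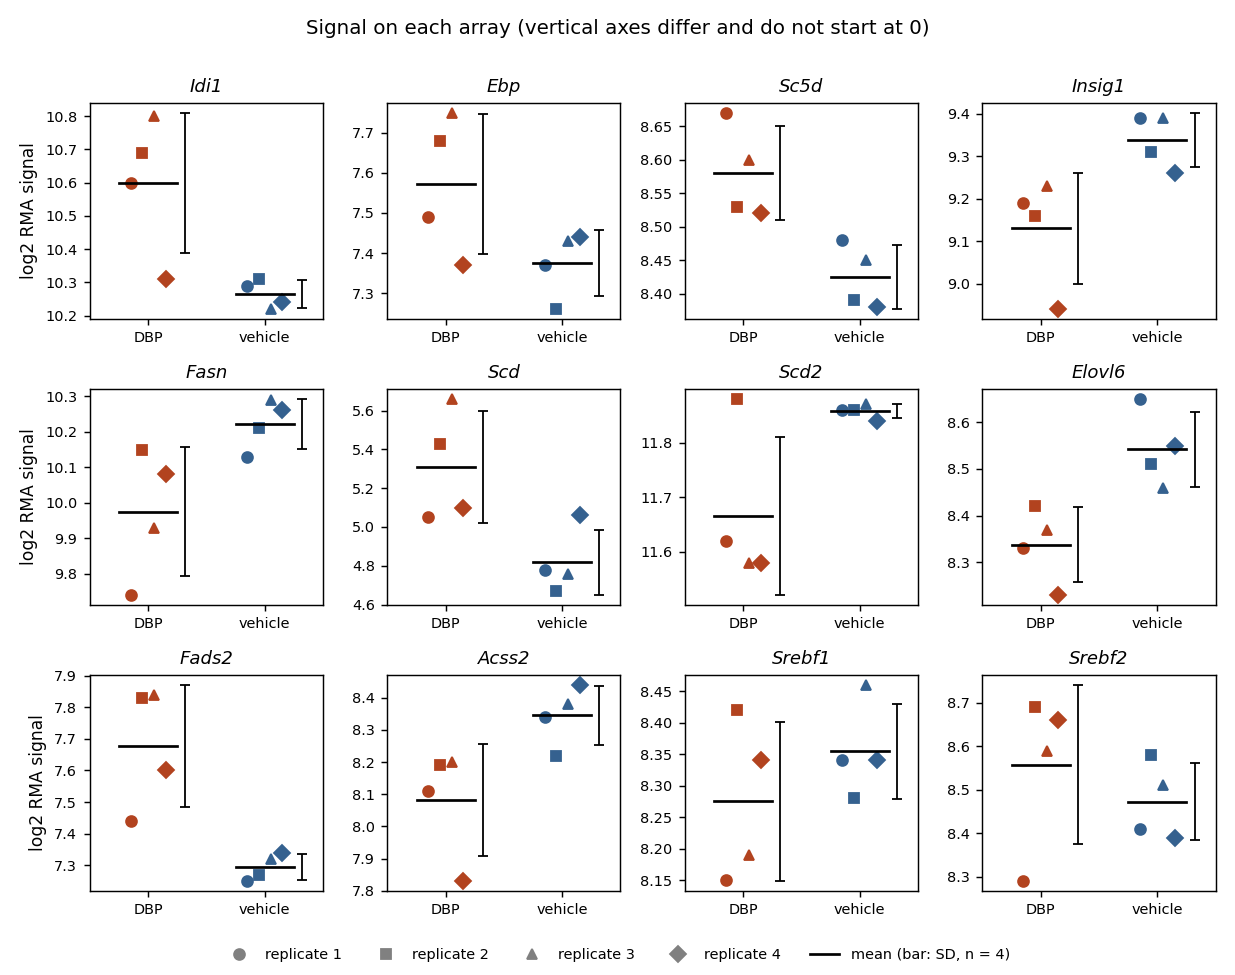
Log2 RMA signal on each array for the 10 genes with an unadjusted p under 0.05 and for Srebf1 and Srebf2, DBP arrays left in red and vehicle arrays right in blue; the shape of a point gives the replicate, the line the mean and the bar the SD (n = 4). DBP replicate 4 (diamond) of Idi1 and Ebp lies among the vehicle arrays, while the groups are apart for Sc5d, Insig1, Elovl6, Fads2 and Acss2.

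The DBP arrays differed from each other in a shared way across the sterol arm, a pattern chosen for description after the values were seen. The median deviation of the 18 genes from their vehicle means was -0.02, 0.10, 0.18 and -0.17 on the log2 scale in DBP replicates 1 to 4, against 0.03, -0.04, 0.03 and -0.02 in vehicle replicates 1 to 4. Over all genes the same medians lay between 0.01 and 0.03 on the DBP arrays. DBP replicate 4 was the single lowest of the DBP arrays for 17 of the 18 genes, with Dhcr7 the exception, against 27.2% of all genes. It lay below every vehicle array for 14 of them, against 32.1% of all genes. DBP replicate 3 was the single highest DBP array for 11 of the 18, against 27.8% of all genes, and lay above every vehicle array for 13, against 40.1%. The SD of the DBP arrays was above that of the vehicle arrays for 17 of the 18 genes, where it was for 79.9% of all genes. The median SD was 0.17 in DBP and 0.054 in vehicle for the sterol arm, beside 0.12 in DBP and 0.066 in vehicle for all genes. Both DBP replicate 3, the highest in the sterol arm, and DBP replicate 4, the lowest, had low spike-in signal, and the part of that signal in these deviations was not tested. Without DBP replicate 4, 15 of the 18 changes were above 0 with a median of 0.09. Without DBP replicate 3, 7 of the 18 were above 0 with a median of -0.04. In that fit 0 of the 35 genes passed (0.858% of all genes did), 9 had an unadjusted p under 0.05 (15.0% of all genes), and the groups did not overlap for 7 (15.7% of all genes). The sign of the arm's median thus differed with the array left out.

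**Figure D3:**
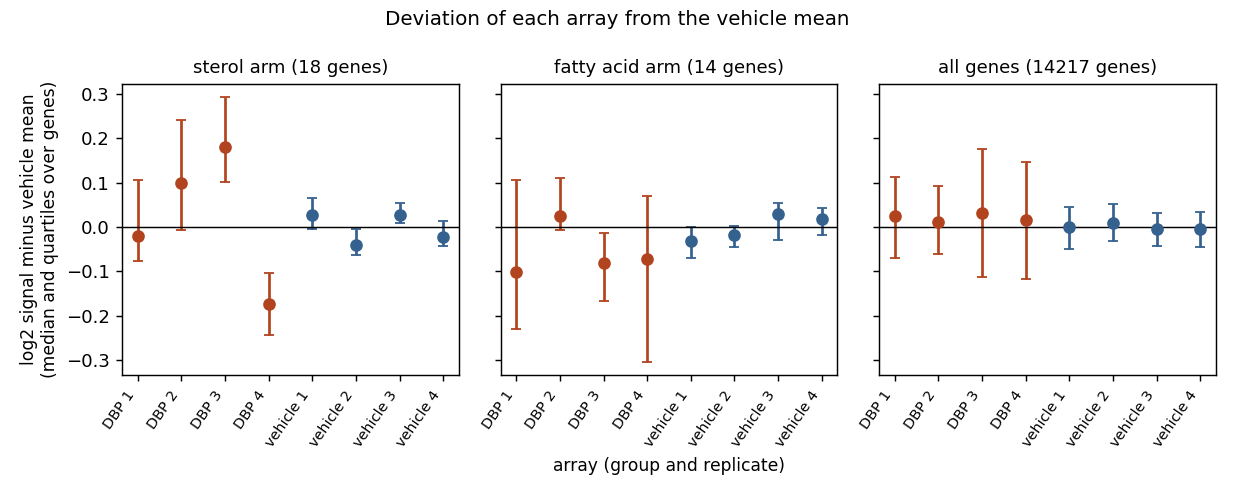
Median (point) and quartiles (bar) over genes of the log2 signal minus the gene's vehicle mean, for each DBP array (red) and vehicle array (blue), in the sterol arm, the fatty acid arm and all genes. In the sterol arm DBP replicate 3 is at 0.18 and DBP replicate 4 at -0.17, while the vehicle arrays and the medians of all genes stay near 0.

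**Figure D4:**
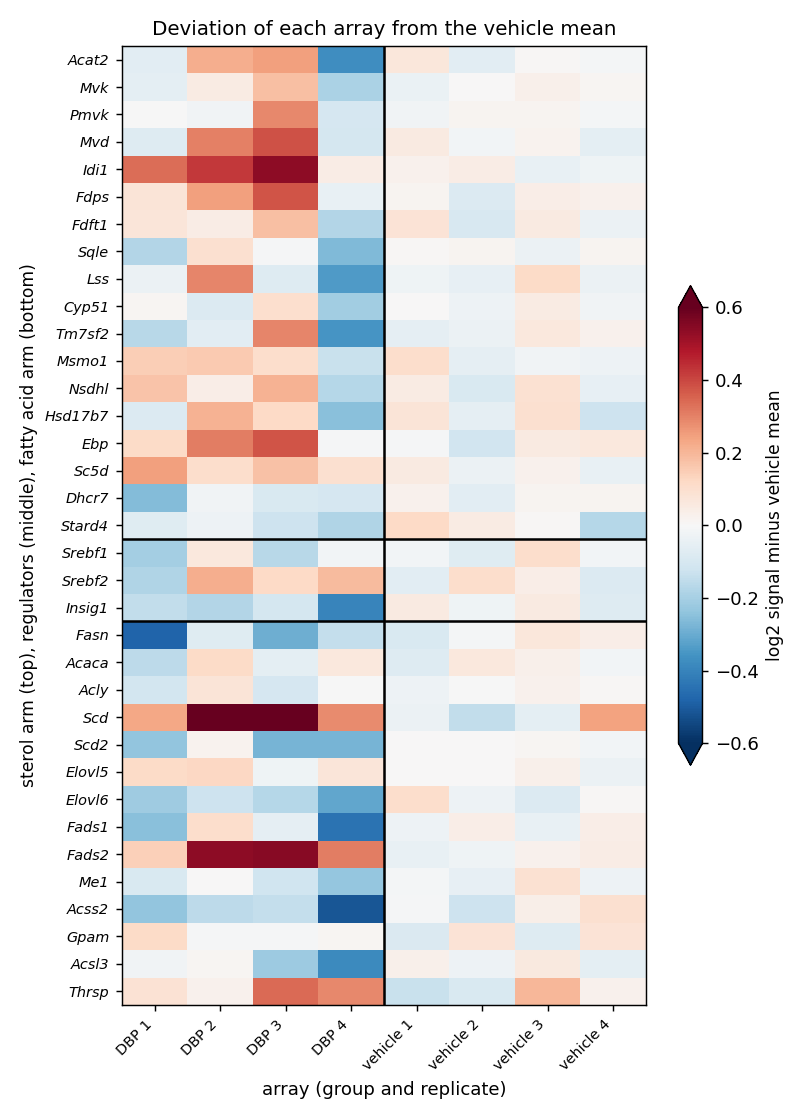
Log2 signal of each of the 35 genes on each array minus the mean of its vehicle arrays, with red above and blue below that mean and colours clipped at 0.6 either way. The sterol arm (top) is mostly red in DBP replicate 3 and mostly blue in DBP replicate 4, and in the fatty acid arm (bottom) Scd and Fads2 are red across the DBP arrays.

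Of the 3 regulators, the genes of the transcription factors themselves did not pass and had small differences. Srebf2 had 8.29, 8.69, 8.59 and 8.66 in DBP replicates 1 to 4, against 8.41, 8.58, 8.51 and 8.39 in vehicle replicates 1 to 4 (log2 change 0.09, -0.12 to 0.29, 95% confidence interval; limma adjusted p = 0.633). DBP replicate 1 was the lowest of all 8 arrays and the other DBP arrays were higher than every vehicle array. Srebf1 had 8.15, 8.42, 8.19 and 8.34 in DBP replicates 1 to 4, against 8.34, 8.28, 8.46 and 8.34 in vehicle replicates 1 to 4 (log2 change -0.08, -0.24 to 0.08; limma adjusted p = 0.575), and its groups overlapped. An array measures the transcript and not the cut, nuclear form of either protein. Insig1, which holds the SREBP complex in the endoplasmic reticulum and is itself an SREBP target, had 9.19, 9.16, 9.23 and 8.94 in DBP replicates 1 to 4, against 9.39, 9.31, 9.39 and 9.26 in vehicle replicates 1 to 4. Every DBP array was below every vehicle array, and DBP replicate 4 was the lowest. The difference was 1.16-fold lower in DBP (log2 change -0.21 ± 0.073, SE; limma adjusted p = 0.191).

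In the fatty acid arm the p before adjustment was under 0.05 for 6 of 14 genes (42.9%), of which 2 were higher after DBP and 4 lower. The groups did not overlap for 3 (21.4%). In the sterol arm these counts were 3 of 18 (16.7%) and 1 of 18 (5.56%). Among all genes the shares were 19.1% and 12.9%. The enzymes at the entry of the path differed little or were lower. Acly, which makes cytosolic acetyl-CoA from citrate, had a log2 change of -0.04, and Acaca, acetyl-CoA carboxylase, had 9.44, 9.71, 9.54 and 9.66 in DBP replicates 1 to 4, against 9.52, 9.66, 9.63 and 9.58 in vehicle replicates 1 to 4 (log2 change -0.01, -0.17 to 0.15, 95% confidence interval). Its groups overlapped widely. Acss2, which makes acetyl-CoA from acetate, had 8.11, 8.19, 8.20 and 7.83 in DBP replicates 1 to 4, against 8.34, 8.22, 8.38 and 8.44 in vehicle replicates 1 to 4. The groups did not overlap, with DBP replicate 4 lowest (log2 change -0.26 ± 0.089, SE; 1.20-fold lower in DBP, limma adjusted p = 0.178).

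Fasn, fatty acid synthase, which builds palmitate, had 9.74, 10.15, 9.93 and 10.08 in DBP replicates 1 to 4, against 10.13, 10.21, 10.29 and 10.26 in vehicle replicates 1 to 4. DBP replicate 2 lay within the vehicle range and the other DBP arrays below it (log2 change -0.25 ± 0.088, SE; 1.19-fold lower in DBP, limma adjusted p = 0.193). Me1, malic enzyme, a source of NADPH for this synthesis, had a log2 change of -0.11 (limma adjusted p = 0.387).

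The desaturases and elongases, which modify the chains that Fasn makes, lay on opposite sides of 0 within each of 3 related pairs. Scd, a stearoyl-CoA desaturase, was dim but had the largest change of the 35 genes, with 5.05, 5.43, 5.66 and 5.10 in DBP replicates 1 to 4, against 4.78, 4.67, 4.76 and 5.06 in vehicle replicates 1 to 4. Vehicle replicate 4 lay just above the lowest DBP array, so the groups overlapped (log2 change 0.49 ± 0.14, SE; 1.41-fold higher in DBP, limma adjusted p = 0.116). Scd2, the related desaturase, had 11.62, 11.88, 11.58 and 11.58 in DBP replicates 1 to 4, against 11.86, 11.86, 11.87 and 11.84 in vehicle replicates 1 to 4. DBP replicate 2 was the highest of all 8 arrays and the other 3 DBP arrays lay below the vehicle arrays, which were close together (log2 change -0.19 ± 0.073, SE; 1.14-fold lower in DBP, limma adjusted p = 0.219). Without DBP replicate 2 the log2 change of Scd2 was -0.26 (limma adjusted p = 0.046, with 2.31% of all genes passing). It was -0.11 in DBP replicates 1 and 2 against vehicle (limma adjusted p = 0.549). With the term for the dim spike-ins the change was the same by construction. Its limma adjusted p was then 0.637, the highest of the alternatives for Scd2. Without probe sets that match several transcripts, another probe set stood for Scd2 and had -0.34 (limma adjusted p = 0.304).

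Fads2, the fatty acid desaturase that starts the making of long polyunsaturated chains, came nearest to the threshold. It had 7.44, 7.83, 7.84 and 7.60 in DBP replicates 1 to 4, against 7.25, 7.27, 7.32 and 7.34 in vehicle replicates 1 to 4, so that every DBP array was above every vehicle array. The mean was 7.68 ± 0.19 in DBP and 7.30 ± 0.042 in vehicle (SD, n = 4 per group), 1.30-fold higher in DBP (log2 change 0.38 ± 0.089, SE; limma adjusted p = 0.0779). Without DBP replicate 1 the log2 change was 0.46 (limma adjusted p = 0.0372, with 0.893% of all genes passing), and over all its alternatives the adjusted p ran from 0.0372 to 0.206. Fads1, the desaturase that acts later in that path, had 9.19, 9.55, 9.39 and 9.00 in DBP replicates 1 to 4, against 9.41, 9.48, 9.40 and 9.48 in vehicle replicates 1 to 4. Its DBP arrays reached above and below the vehicle arrays (log2 change -0.16 ± 0.10, SE; limma adjusted p = 0.428).

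Elovl6, which elongates palmitate, had 8.33, 8.42, 8.37 and 8.23 in DBP replicates 1 to 4, against 8.65, 8.51, 8.46 and 8.55 in vehicle replicates 1 to 4. Every DBP array was below every vehicle array (log2 change -0.21 ± 0.065, SE; 1.15-fold lower in DBP, limma adjusted p = 0.156). Elovl5, which elongates polyunsaturated chains between the steps of Fads2 and Fads1, had 11.40, 11.41, 11.26 and 11.36 in DBP replicates 1 to 4, against 11.29, 11.29, 11.32 and 11.25 in vehicle replicates 1 to 4 (log2 change 0.07 ± 0.056, SE; limma adjusted p = 0.516). Of its DBP arrays 3 lay above every vehicle array and DBP replicate 3 lay within them. The difference between the changes of related genes was not tested. Of the remaining genes of the arm, Gpam, which starts triglyceride synthesis, had a log2 change of 0.03, Acsl3, an acyl-CoA synthetase of lipid droplets and the endoplasmic reticulum, of -0.15, and Thrsp, known from liver and fat as a lipogenic gene, of 0.19 (limma adjusted p = 0.32).

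In the fatty acid arm the arrays did not follow the order seen in the sterol arm. The median deviation of the 14 genes from their vehicle means was -0.10, 0.03, -0.08 and -0.07 on the log2 scale in DBP replicates 1 to 4, against -0.03, -0.02, 0.03 and 0.02 in vehicle replicates 1 to 4. DBP replicate 4 was the single lowest DBP array for 5 of the 14 genes and DBP replicate 2 the single highest for 9, against 27.2% and 22.5% of all genes. Without DBP replicate 2, 10 of the 14 genes, 3 higher and 7 lower, reached a p under 0.05 before adjustment, where 25.5% of all genes did. With the term for the dim spike-ins the count was 3 of 14, 2 higher and 1 lower. There 11.9% of all genes had a p under 0.05 before adjustment. With the RNA integrity number as covariate the count was 4 of 14, 2 higher and 2 lower. There 4445 of 31042 probe sets had such a p, and the share over genes is not given. In the fit without DBP replicate 2, Fads1, Me1, Acsl3 and Thrsp were those added to the 6 named above.

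Of the 35 genes 19 had several probe sets, which gave 25 further values. The further probe set lay on the same side of 0 as the representing one in 18 of the 25. For Elovl6 the further probe set had a log2 change of -0.30 (limma adjusted p = 0.111), and its values of 7.72, 7.42, 7.59 and 7.41 in DBP replicates 1 to 4 were all below the 7.82, 7.85, 7.94 and 7.74 of vehicle replicates 1 to 4. That of Fasn had -0.28, and those of Sc5d had 0.24 and 0.16. The further probe set of Idi1 had 0.09, with 8.50, 8.48, 8.35 and 7.93 in DBP replicates 1 to 4, against 8.24, 8.08, 8.32 and 8.25 in vehicle replicates 1 to 4, and its DBP replicate 4 was again the lowest. For Scd2 the other probe sets had -0.34, -0.11 and 0.02. Those of Cyp51 (0.18), Lss (0.14), Stard4 (0.16 and 0.12), Fdft1 (-0.10) and Gpam (-0.18) lay on the other side of 0 from the representing probe set. A probe set of Thrsp was the only one of the 60 to pass, with a log2 change of 0.43 ± 0.078 (SE; limma adjusted p = 0.032), where 1.07% of all probe sets passed. It was dim, with 4.17, 3.98, 4.18 and 4.21 in DBP replicates 1 to 4, against 3.56, 3.74, 3.68 and 3.85 in vehicle replicates 1 to 4, all below the lowest quartile of the arrays' signals, which lay at 4.23 to 4.38. The files hold no detection calls, so whether this signal exceeds background was not tested.

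**Figure D5:**
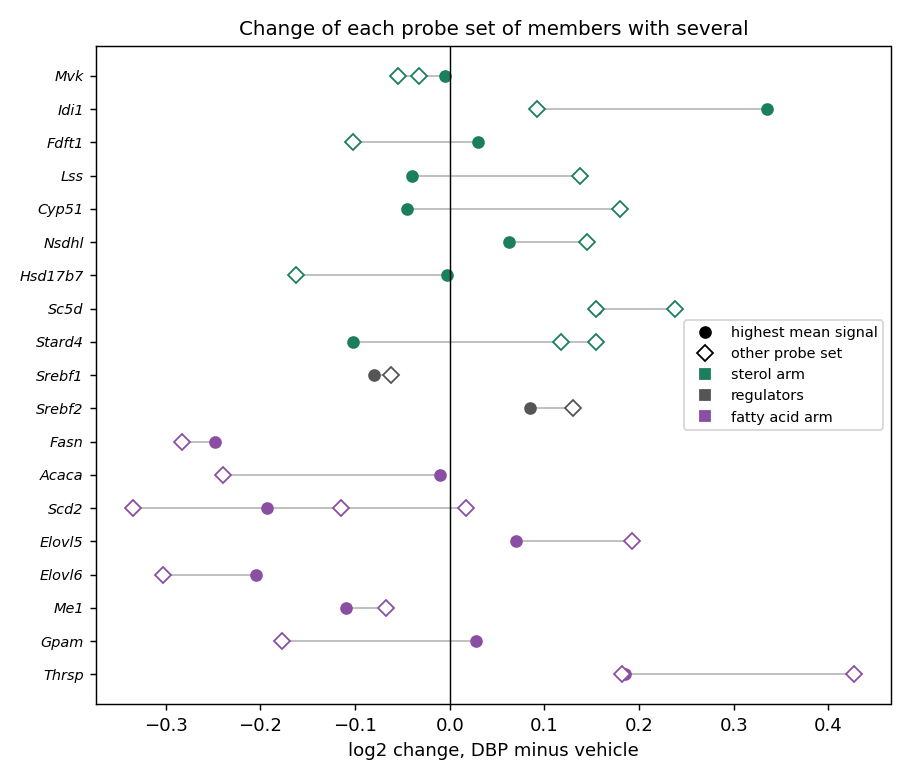
Log2 change, DBP minus vehicle, of each probe set of the 19 genes with several; filled circles are the probe sets with the highest mean signal and open diamonds the others, coloured by arm. The probe sets of Elovl6, Fasn and Sc5d lie on the same side of 0, those of Stard4, Cyp51, Lss, Fdft1, Gpam and Scd2 on both sides.

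Beyond the 35 genes, a list of 36 regulators of SREBP and other enzymes and targets of the pathway was examined, of which 29 had a representing probe set and 7 were not analysed here. None of the 29 passed, where 1.22% of all genes did. Before adjustment 3 (10.3%) were below 0.05, against 19.1% of all genes. Among the 15 regulators measured, Scap, which escorts SREBP to the Golgi, had a log2 change of 0.00. The proteases that cut SREBP had -0.11 (Mbtps1) and -0.10 (Mbtps2), and Insig2 had -0.09. Sp1, the factor that binds GC boxes, was lower, with 9.95, 9.36, 10.02 and 10.04 in DBP replicates 1 to 4, against 10.21, 10.16, 10.37 and 10.13 in vehicle replicates 1 to 4 (log2 change -0.38 ± 0.14, SE; limma adjusted p = 0.205). The groups did not overlap, and DBP replicate 2 was far below the rest; without it the change was -0.21. Among the 14 other enzymes and targets, Pklr, the liver and red cell pyruvate kinase, had 4.73, 4.52, 4.48 and 4.41 in DBP replicates 1 to 4, against 4.01, 4.34, 4.01 and 4.11 in vehicle replicates 1 to 4 (log2 change 0.42 ± 0.093, SE; limma adjusted p = 0.0679). All 4 DBP arrays were above the vehicle arrays, at a dim signal. When a term for the dim spike-ins was added, the change of Pklr was 0.51 (limma adjusted p = 0.0487, with 1.11% of all genes passing). As a mean over the probe sets of Pklr it was 0.25 (limma adjusted p = 0.136), and over all its alternatives the adjusted p ran from 0.0471 to 0.208. Fabp5, a fatty acid binding protein, had a log2 change of 0.19 (limma adjusted p = 0.168).

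Scd and Thrsp are also known as genes of fat, so markers of other cell types were set beside these values. The mean log2 signal of 7 measured adipocyte markers was 4.58, 4.42, 4.62 and 4.55 in DBP replicates 1 to 4, against 4.40, 4.41, 4.35 and 4.33 in vehicle replicates 1 to 4. All 4 DBP arrays were above the vehicle arrays at a dim signal, and 0 of the 7 passed. An unadjusted p under 0.05, which 19.1% of all genes had, was seen for 2, Lep (0.33) and Fabp4 (0.44). Both were dim. The vehicle mean of Lep was 3.67, below the lowest quartile of the arrays' signals (4.23 to 4.38), and that of Fabp4 was 4.39, close to it. Whether these signals exceed background was not tested. Adipoq had a log2 change of 0.12 and Plin1 of 0.04, both also with signals near or below the lowest quartile of the arrays. Higher markers were also seen in other lists. At an unadjusted p under 0.05, 3 of 4 mesonephric duct and epididymis markers and 2 of 6 macrophage markers were higher. So were 1 of 5 endothelial, 1 of 6 erythroid, 1 of 5 myoid and 1 of 2 germ cell markers. In these lists 0 were lower, while 1 of 3 adrenal markers and 1 of 2 Schwann and nerve markers were lower. Of 7 Sertoli cell markers 2 were higher and 1 was lower. At this p 11.3% of all genes were higher and 7.84% lower. The endothelial one, Plvap, passed (log2 change 0.36, limma adjusted p = 0.0471). The adrenal one, Mrap, was lower and passed as well (log2 change -0.605, limma adjusted p = 0.029). Lcn2 and Defb1 of the mesonephric list were dim, with vehicle means of 4.19 and 3.49, while Pax8 had 6.7. The mean of 6 erythroid markers was 9.46, 9.41, 8.74 and 8.76 in DBP replicates 1 to 4, against 8.79, 9.06, 8.71 and 8.83 in vehicle replicates 1 to 4, and erythroid cells are a known source of Pklr. The part of these markers in the changes of Scd, Thrsp and Pklr was not tested. None of the 6 Leydig cell markers passed. At an unadjusted p under 0.05, which 19.1% of all genes had, 1 was higher, Hsd3b1 (log2 change 0.17). Lower were 2, Insl3 (-0.34, limma adjusted p = 0.0732) and Lhcgr (-0.21). For Hsd3b1, Insl3 and Lhcgr the DBP and vehicle arrays did not overlap, which was so for 12.9% of all genes. For Cyp11a1, Cyp17a1 and Star they overlapped. The means of the 6 in DBP replicates 1 to 4 were 11.55, 11.73, 11.59 and 11.61, against 11.73, 11.67, 11.72 and 11.66 in vehicle replicates 1 to 4. DBP replicate 2 was highest and DBP replicate 1 lowest of the DBP arrays, as in the medians of the fatty acid arm, while in the sterol arm DBP replicate 3 was highest and DBP replicate 4 lowest. The part of these markers in either arm was not tested.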

How the data were processed

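Testis RNA of 8 samples was measured on Affymetrix rat arrays, with 1 array for each sample. Per the submitters' processing notes, the authors used RMA, whose version the sources used here do not give; the deposited numbers are on the log2 scale. Of 31099 probe sets, 57 Affymetrix controls were set aside and 31042 tested. Gene names came from the platform annotation, in which 20826 probe sets had 1 symbol, 436 several and 9780 none. The fit of DBP against vehicle used lmFit and eBayes of limma 3.58.1 in R 4.3.3 (2-sided), and p-values were adjusted by Benjamini-Hochberg across the 31042 probe sets, with 0.05 as the threshold. Confidence intervals are 95% intervals of that model. The procedure was tested on simulated data. Python 3.11.15, pandas 2.3.3 and matplotlib 3.10.9 made tables and figures. The number of arrays limits the precision.

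The genes, lists and tests were chosen with earlier results of these data known. Every array's values are given for genes at an unadjusted p under 0.05, Srebf1, Srebf2, Insig1 and the related pairs of Scd, Fads and Elovl genes, Acaca and Fasn; those of Acat2, Fdps, Dhcr7 and further probe sets were chosen after their values were seen. The labels do not say whether equal replicate numbers share a dam, and the main fit left the arrays unpaired. Deviations from the group means correlated at 0.108, -0.076, 0.097 and -0.021 between equal numbers. Between different numbers they correlated at -0.186 to 0.173. These values cannot decide whether the arrays are paired. Alternatives were filters on signal, normalization, priors, covariates, array weights, other representing probe sets and leaving out arrays. No genome coordinates other than those of the promoter windows were used here.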

Additional observations from a re-analysis of the deposited data

Results flagged for a closer look

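Within a group of 4, a sample is listed here where its gap to the nearest other sample, as a share of the group's range, exceeds Dixon's 95% critical value; chance gives such a gap in about 5% of groups, and 7 of 76 groups showed one. DBP replicate 2 stood apart in 3 genes: Scd2 at 11.88 (other DBP arrays 11.58 to 11.62), Sp1 at 9.36 (9.95 to 10.04) and Fabp5 at 11.14 (11.29 to 11.30). Gpam was high in DBP replicate 1, at 5.23 (5.11 to 5.13). Among vehicle arrays, Fdps was low in replicate 2, at 10.64 (10.74 to 10.76), Dhcr7 was low in replicate 2, at 10.21 (10.29 to 10.30), and Lss was high in replicate 3, at 7.57 (7.41 to 7.43).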

How the results depend on the processing

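The count of the 35 genes past the threshold was 0 by default, 1 with array weights (Idi1), 1 in DBP replicates 1 and 2 against vehicle (Idi1) and 1 at an adjusted p under 0.10 (Fads2), where 2.88% of all genes passed. With single arrays left out it ran from 0 to 1: Fads2 without DBP replicate 1, Scd2 without DBP replicate 2, and Idi1 without DBP replicate 4. The count at an unadjusted p under 0.05, 10 of 35, was 6 (3 higher, 3 lower) with the RNA integrity number as covariate, where 4445 of 31042 probe sets had one (5664 by default). It was 5 when a term for the dim spike-ins was added, where 11.9% of all genes had one: 4 higher and 1 lower, since Insig1, Scd2, Elovl6, Acss2 and Ebp were no longer under 0.05. It was 11 in DBP replicates 1 and 2 against vehicle, where 15.4% of all genes had one. The count of genes whose groups do not overlap, 5 of 35, was 11 in DBP replicates 1 and 2 against vehicle, where 25.3% of all genes did not, and 5 to 10 with single arrays left out, highest without DBP replicate 2 (23.3% of all genes) and 8 without DBP replicate 4 (17.1%). Fewer arrays overlap less often by construction. The median of the fatty acid arm was -0.07 by default and -0.15 among the 11 of its genes with a signal above the median. Scd, Gpam and Thrsp were left out there. The arm's median was -0.02 in DBP replicates 1 and 2 against vehicle and, by construction, the same with the term for the dim spike-ins. With the replicate number as a block 0 of the 35 genes passed, 10 had an unadjusted p under 0.05 (5537 of 31042 probe sets did), and 175 in place of 331 probe sets passed in all. Unmoderated t statistics gave 0 of the 35 and 74 probe sets. Scd and Thrsp are dim, and no detection calls were used.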
